A study of Ovis aries with 3 samples.

Results

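*DLX5*, *DLX6*, *SP6*, *SP8*, *TP63* and *MSX2* encode transcription factors of the limb ectoderm, and they were followed through single-cell RNA libraries of whole sheep embryos. They were chosen by name, as 6 of the 26478 genes in the files, of which 16670 carry a symbol. All 6 were found. Their values were taken over the cells with 200 to 6000 genes, 1000 to 30000 unique molecular identifiers (UMIs, each standing for a captured RNA molecule) and at most 10% of UMIs from mitochondrial genes.

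The apical ectodermal ridge (AER) is the thickened epithelium at the edge of a limb bud, and its fibroblast growth factors, FGF8 among them, keep the mesenchyme beneath it growing. TP63 is the master factor of stratified epithelium, DLX5 and DLX6 are homeodomain proteins encoded by neighbouring genes, SP6 and SP8 are zinc finger proteins that act in the ectoderm upstream of FGF8, and MSX2 is a homeodomain protein that responds to bone morphogenetic proteins. None of them is restricted to limb ectoderm: DLX5 and DLX6 also act in the mesenchyme of the branchial arches, SP8 in the neural tube and tail bud, and MSX2 in mesenchyme and in the dorsal neural tube.

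Each condition had 1 library. E19 HSTS was a day 19 embryo of Hulunbuir short-tailed sheep, a breed whose tested animals were homozygous for a mutation in *T*, the gene of the mesoderm factor Brachyury. E19 HS was a day 19 embryo of Hu sheep, whose tested animals were homozygous for the wild-type *T* allele, and E16 HS was Hu sheep material of day 16. For E16 HS the labels name a single embryo while the study's methods speak of several, and whether they were pooled is not given in the sources used here. Breed and *T* genotype cannot be told apart, nor can embryo and condition, and red blood cells had been lysed in all 3 preparations. Values given as 3 in a row have E19 HSTS first, then the E19 library of Hu sheep and last E16 HS. The kept cells numbered 9618, 10629 and 11329, with 99580051, 88733467 and 113213654 UMIs. The median depth was 8675, 6900 and 9046 UMIs per cell, and pairs of libraries shared 31 to 37 cell barcodes, at most 0.348% of a library. With 1 library per condition there was no spread between embryos and no test between conditions, so all intervals are exact 95% intervals that cover counting error only.

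Surface ectoderm was looked for first. The kept cells of the 3 libraries were clustered together without the 6 genes, and 1 cluster of 1544 cells was led by *CXCL14*, *CLDN7*, *AP1M2*, *TFAP2A* and *EPCAM*. It was called surface ectoderm-like. It held 400, 535 and 609 cells of the libraries (4.16%, 5.03% and 5.38%), and 87.5%, 87.5% and 86.7% of these cells had a UMI of *EPCAM*, an epithelial adhesion gene. Of the 13 surface ectoderm markers in the files, at most 1 was at 0 in a library of this class, and their summed level was 4874, 4404 and 9758 UMIs per 1000000 (CPM). This list, *EPCAM* included, gave the class its name, so these values describe the class and do not test the name. The 8 mesenchyme genes also had at most 1 at 0 by library, at a summed level of 551, 332 and 971 CPM. Keratins of mature epidermis were near 0: *KRT15* had 3 UMIs and *KRT5* 21 in the class. Genes listed for other tissues were present too, with *SOX2* at 94.7 CPM and *APOA1* at 112 CPM. *TFAP2B*, of the neural crest list, was at 72.9 CPM and was itself among the leading genes of the cluster. Of the 11 gut and yolk sac endoderm genes in the files, only *SOX17* had 0 UMIs, and their summed level was 193 CPM. *KRT7* was also among the leading genes of the cluster, and the study took *CLDN7* and *KRT7* as gut markers. A limb part of this ectoderm cannot be picked out by the class alone.

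*DLX5* had the most UMIs of the 6 in each library. Its UMIs numbered 319, 318 and 217, or 3.20 CPM (2.86 to 3.58), 3.58 CPM (3.20 to 4.00) and 1.92 CPM (1.67 to 2.19). *MSX2* came next in E19 HSTS and E19 HS, at 1.11 CPM (0.917 to 1.34) and 1.53 CPM (1.29 to 1.81), and had 1.55 CPM (1.33 to 1.80) in E16 HS, where its interval overlapped that of *DLX5*. *TP63* followed at 0.512 CPM (0.381 to 0.673), 0.383 CPM (0.265 to 0.535) and 0.344 CPM (0.245 to 0.471). These levels are UMIs of the 3′ end and are not per length, so they order detection rather than transcript number.

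The other 3 genes were rare. *DLX6* had 26, 26 and 7 UMIs, *SP6* had 17, 3 and 28, and *SP8* had 13, 14 and 19. In E19 HSTS the intervals of *DLX6* (0.261 CPM, 0.171 to 0.383), *SP6* (0.171 CPM, 0.0994 to 0.273) and *SP8* (0.131 CPM, 0.0695 to 0.223) overlapped each other. In E16 HS *DLX6*, at 0.0618 CPM (0.0249 to 0.127), lay below *SP6*, at 0.247 CPM (0.164 to 0.357), without overlap.

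**Figure D1:**
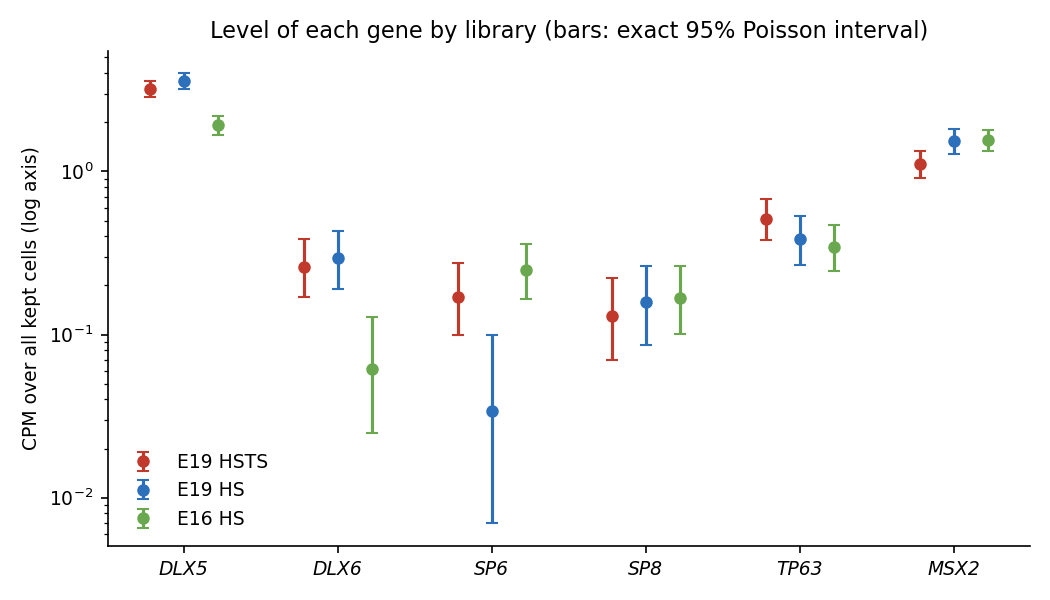
Level of each gene in CPM (log axis) over all kept cells of each library. Points are the 3 libraries and bars are exact Poisson intervals. *DLX5* lies highest in each library, *SP6* is lowest in E19 HS with 3 UMIs, and *DLX6* is lowest in E16 HS with 7.

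In shares of cells, *DLX5* was detected in 2.01%, 1.98% and 1.45% of cells, and *MSX2* in 1.06%, 1.16% and 1.49%. *TP63* reached 0.457%, 0.292% and 0.318%, and the other 3 genes were in at most 0.260%. At least 1 of the 6 was found in 319, 351 and 374 cells, which is 3.32%, 3.30% and 3.30%. Blood progenitor-like cells, which should lack these genes, gave a background level. Free RNA and doublets (cells that share a barcode) were not told apart in it. Of these cells, 0.152%, 0.352% and 0.25% had *DLX5*, 0.190%, 0.0704% and 0.0999% had *MSX2*, and no other gene passed 0.0758%. Over all libraries 14 of them had *DLX5*, and 6 of those lacked *EPCAM*. The median depth of blood progenitor-like cells was 17493, 17569 and 13946 UMIs, deeper than the kept cells as a whole. When 3000 UMIs were drawn from every cell, which dropped the 1106, 1345 and 1317 cells with fewer, *DLX5* was in 0.94%, 1.02% and 0.539% of cells and *MSX2* in 0.411%, 0.399% and 0.589%.

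Between the breeds at E19, 5 of the 6 genes were within 2-fold of each other and 1, *SP6*, was past 2-fold. Of 11354 named genes whose UMIs in both libraries together reached 20, 1.66% were at least 2-fold higher and 2.74% at least 2-fold lower in E19 HSTS. *SP6* was 5.05-fold as high in E19 HSTS as in E19 HS (1.46 to 26.9), a value that rests on 17 against 3 UMIs. None of the 6 was at least 2-fold lower. *MSX2* stood at 0.727 of its E19 HS level (0.561 to 0.941) and *DLX5* at 0.894 (0.763 to 1.05). The ratio was 0.891 for *DLX6* (0.497 to 1.60) and 1.34 for *TP63* (0.849 to 2.13).

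Blood progenitor-like cells, rich in RNA, made up 2637 cells of E19 HSTS against 1421 of E19 HS. Without them the ratio of *DLX5* turned from 0.894 to 1.18 and that of *DLX6* from 0.891 to 1.08, while *MSX2* came to 0.907. Within the surface ectoderm-like class, where blood has no part in the total, *DLX5* was at 48.9 CPM in E19 HSTS and 44.9 CPM in E19 HS, a ratio of 1.09 (0.894 to 1.33). *TP63* was at 11.7 CPM against 6.74 CPM there, 1.73-fold as high in E19 HSTS (1.08 to 2.80). *MSX2* was at 6.32 against 5.90 CPM (ratio 1.07, 0.604 to 1.90), and *SP6* had 12 UMIs against 3 (ratio 4.62, 1.25 to 25.5). Over all cells outside the class, blood progenitor-like cells included, the *MSX2* ratio was 0.692 (0.515 to 0.929). The part of blood in that value was not tested. In the class, none of the 6 stood lower in E19 HSTS by more than counting error.

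Between E16 and E19 in Hu sheep, *DLX6* was lower and *SP6* higher at E16. Of 11421 genes tested, 6.91% were at least 2-fold higher and 7.62% at least 2-fold lower in E16 HS, and the count among the 6 was 1 each way. *DLX6* stood at 0.211 of its E19 HS level (0.0773 to 0.499) and *SP6* was 7.32-fold as high in E16 HS (2.26 to 37.6), again over 3 UMIs in E19 HS. *DLX5* stood at 0.535 of its E19 HS level (0.448 to 0.638), just short of 2-fold, and *MSX2* (1.01, 0.806 to 1.28), *SP8* (1.06, 0.506 to 2.29) and *TP63* (0.899, 0.553 to 1.47) had intervals that hold 1. Over all deposited cells, with no filter, the *TP63* ratio turned to 1.33. The median log2 ratio of all genes tested was 0.21. With TMM scaling, which sets that median near 0, *DLX5* passed 2-fold too, at 0.463.

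The lower *DLX5* of E16 was seen both in and out of ectoderm. In the surface ectoderm-like class it was at 27.1 CPM in E16 HS against 44.9 CPM in E19 HS, a ratio of 0.603 (0.489 to 0.743). In all other cells the ratio was 0.403 (0.285 to 0.565). *SP6* UMIs outside the class numbered 13 in E16 HS and 0 in E19 HS, and *DLX6* UMIs there numbered 2 and 16. *MSX2* in the class was at 7.97 CPM in E16 HS and 5.90 CPM in E19 HS (ratio 1.35, 0.831 to 2.24).

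The genes differed widely in how often *EPCAM* was found in the same cell. Of all cells with *EPCAM*, 32.5%, 33.1% and 22.3% lay in the surface ectoderm-like class, so *EPCAM* alone does not place a cell in ectoderm. *TP63* cells had *EPCAM* in 39 of 44 cases (88.6%, 75.4 to 96.2%), in 22 of 31 (71.0%, 52 to 85.8%) and in 34 of 36 (94.4%, 81.3 to 99.3%). *DLX5* cells had it in 60.6%, 64.3% and 82.3%, and *SP6* cells in 12 of 15, 3 of 3 and 22 of 27. At the other end, *MSX2* cells had it in 27.5%, 26.0% and 46.2%, and *SP8* cells in 2 of 11, 2 of 14 and 11 of 19. *DLX6* lay between them in E19, with 13 of 25 and 7 of 24 cells, and had *EPCAM* in 7 of 7 in E16 HS (59.0 to 100%).

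Cells without a given gene had *EPCAM* in 10.2 to 11.2% of cases in E19 HSTS, while the range was 12.3 to 13.3% for E19 HS and 20 to 20.8% at E16. Against these shares, *SP8* in both E19 libraries did not stand apart: its intervals, 2.28 to 51.8% and 1.78 to 42.8%, hold the share of the cells without it. *DLX6* in E19 HS, at 12.6 to 51.1%, also held it. Blood progenitor-like cells had *EPCAM* in 1.48%, 1.62% and 3.54%. Thinning to 3000 UMIs brought the cells with any of the 6 from 49.2%, 47.3% and 64.4% with *EPCAM* to 36.6%, 30.0% and 42.6%, and the cells with none of them from 9.88%, 12.2% and 19.4% to 6.14%, 7.45% and 11.6%.

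In levels, *EPCAM*-positive cells were at least 2-fold above *EPCAM*-negative cells for 21.2% of the named genes with 20 or more UMIs in E19 HSTS, and for 11.8% and 11.4% of them in the Hu sheep libraries of E19 and E16. Of the 6, 4 passed the filter in each library, and those past 2-fold numbered 4, 3 and 4. *TP63* was at 3.76 CPM against 0.0572 CPM in E19 HSTS, a ratio of 65.7 (26.2 to 212), and *DLX5* was at 15.0 against 1.55 CPM, a ratio of 9.74 (7.75 to 12.3). In E19 HS the ratio of *TP63* was 13.3 (6.12 to 31.1) and that of *DLX5* 11.2 (8.85 to 14.3). *MSX2* had ratios of 2.53 (1.59 to 3.90), 1.99 (1.32 to 2.94) and 2.70 (1.98 to 3.67), and so was the member just short of 2-fold in E19 HS.

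**Figure D2:**
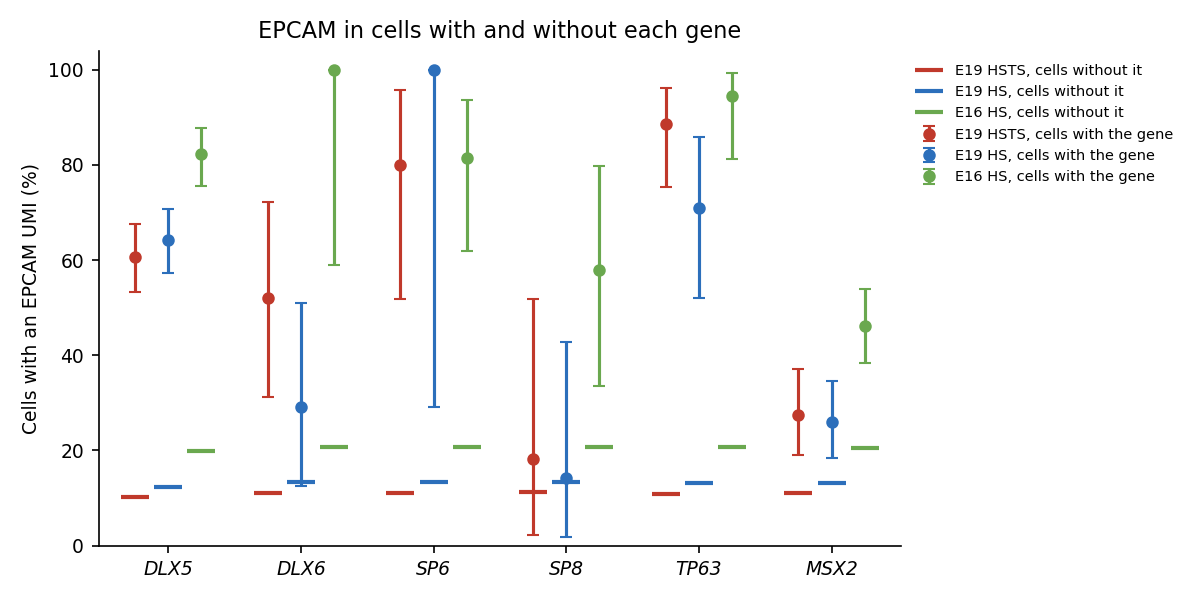
Share of cells with an *EPCAM* UMI (%) among cells with each gene (points, with exact binomial intervals) and among cells without it (dashes), by library. *TP63* lies from 71.0 to 94.4%, above *DLX5* and *MSX2* in each library, while *SP8* in both E19 libraries overlaps the dashes.

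By class, *TP63* had the largest share of its cells in ectoderm. Of its 111 cells, 100 were surface ectoderm-like (90.1%, 83.0 to 94.9%). By library they were 42 of 44, 29 of 31 and 29 of 36. In E16 HS, 6 more lay in an unnamed cluster of 338 cells, of which 329 were of E16 HS, led by the uroplakin gene *UPK3A*, *S100A5* and *WFDC2*. Each other class held at most 1 *TP63* cell. The gene marked a small part of the ectoderm: it was in 10.5% of the class (7.67 to 13.9%), 5.42% (3.66 to 7.69%) and 4.76% (3.21 to 6.77%).

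*DLX5* had a large share in ectoderm and a second one in mesenchyme. Surface ectoderm-like cells held 390 of its 567 cells (68.8%, 64.8 to 72.6%), and mesenchyme-like cells held 106 (18.7%, 15.6 to 22.2%). In the ectoderm class it was in 32.0%, 26.0% and 20.2% of cells. The mesenchymal part was smaller at E16: 42 of 193 cells in E19 HSTS and 51 of 210 in E19 HS were mesenchyme-like, but 13 of 164 in E16 HS. As a level, mesenchyme-like *DLX5* was 3.74, 3.03 and 0.452 CPM. The class was not made of the same clusters at both stages: a cluster of it led by *REG4*, *COL1A1* and *PMP22* held 41, 69 and 1559 cells, and a finer cluster led by histone genes, with 55 *DLX5* UMIs in all, held 767, 964 and 27. In a finer mesenchyme-like cluster led by *EBF2*, which held 481, 774 and 503 cells, *DLX5* was at 7.83, 5.87 and 1.49 CPM, on 26, 28 and 5 UMIs. Smaller numbers lay elsewhere, such as 14 neural progenitor-like cells, 14 blood progenitor-like cells and 4 neural crest-like cells.

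*DLX6* was found in the same tissues as *DLX5*, in far fewer cells. Of 56 *DLX6* cells, 27 were surface ectoderm-like (48.2%, 34.7 to 62.0%) and 21 were mesenchyme-like (37.5%, 24.9 to 51.5%). In E19 HS mesenchyme led, with 13 cells against 9, while in E19 HSTS ectoderm led, with 13 against 8. In E16 HS no *DLX6* cell was mesenchyme-like among 4314 such cells, of which 1559 were of the cluster led by *REG4* that was nearly absent at E19, and 5 of the 7 were ectoderm-like.

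*SP6* cells were mostly ectodermal, with a tail bud share at E16. All 3 of its cells in E19 HS and 10 of 15 in E19 HSTS were surface ectoderm-like. In E16 HS 14 of 27 were, and 8 more were tail bud-like, in a class of 1285 cells led by *SLC2A5*, *CDX2*, *CDX4* and *FGF8* that was itself mostly of E16 HS (1139 cells). Its level in the ectoderm class was 2.92, 0.632 and 2.49 CPM.

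Few *SP8* cells were ectodermal. Of its 44 cells, 4 were surface ectoderm-like (9.09%, 2.53 to 21.7%), and by library they numbered 0, 1 and 3. A count of 0 among 400 ectoderm-like cells allows up to 0.918% of cells with an *SP8* UMI, which does not limit the share of cells that express it. In E19, 7 of 11 and 8 of 14 *SP8* cells were neural progenitor-like, and 2 and 1 were early neuron-like. In E16 HS the largest group was tail bud-like, with 6 of 19 cells. The gene was sparse in neural progenitor-like cells too, in 0.419%, 0.327% and 0.380% of them, beside 0.0379%, 0.0704% and 0.0499% of the deeper blood progenitor-like cells.

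*MSX2* was spread over 3 tissues. Of 394 cells, 134 were mesenchyme-like (34.0%, 29.3 to 38.9%), 94 surface ectoderm-like (23.9%, 19.7 to 28.4%) and 93 neural progenitor-like (23.6%, 19.5 to 28.1%). Per cell it was still most frequent in ectoderm, in 6%, 4.67% and 7.39% of the class, against 1.86%, 2.08% and 1.39% of neural progenitor-like and 1.31%, 1.01% and 1.32% of mesenchyme-like cells. In E16 HS a further 23 cells were tail bud-like and 12 lay in the cluster led by *UPK3A*.

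**Figure D3:**
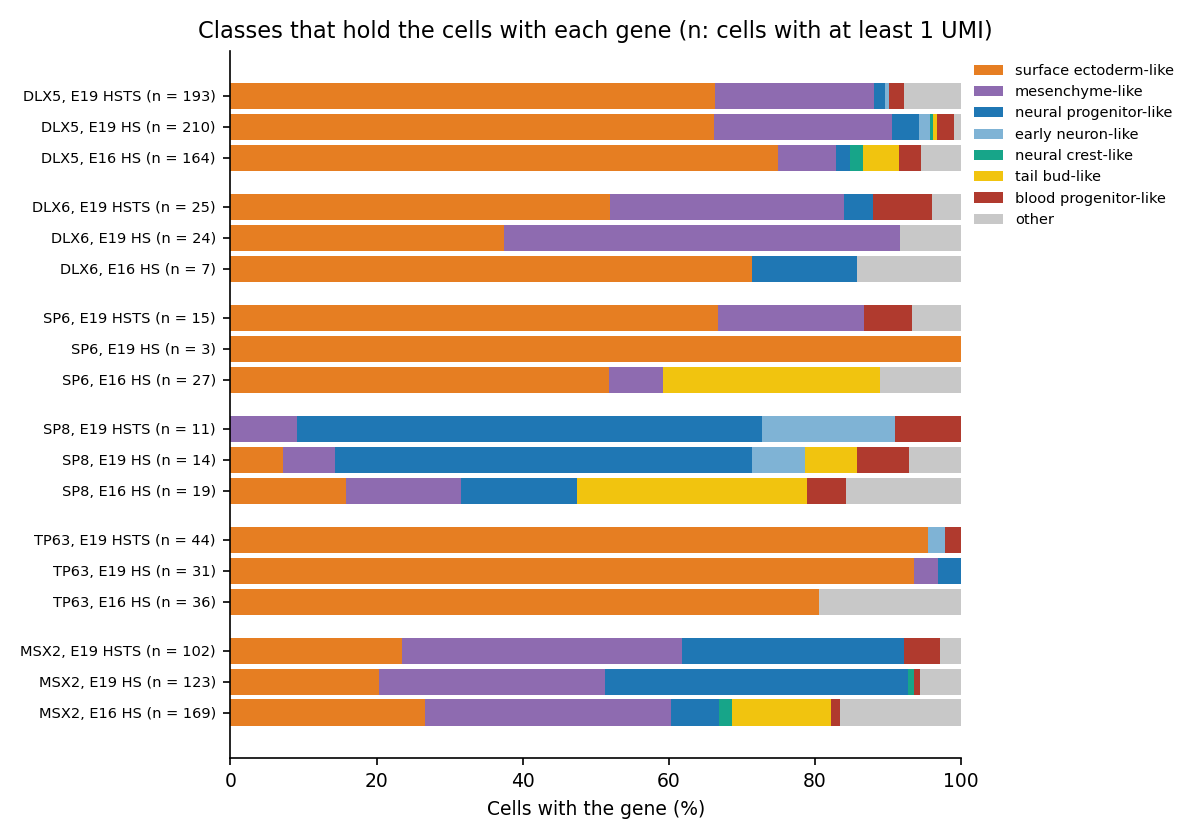
Share (%) of the cells with each gene that fell in each class, by library, with the number of cells in brackets. Orange is surface ectoderm-like, purple mesenchyme-like and dark blue neural progenitor-like. *TP63* is almost wholly orange, from 80.6 to 95.5%, *SP8* in E19 mostly dark blue, and *MSX2* is divided.

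Few cells with the 6 genes were neural crest-like, in a class that was itself small. The class called neural crest-like held 265 cells, led by *APOD*, *TFAP2B* and *PTGDS*, and 4 of them had *DLX5* (1.51%, 0.413 to 3.82%) and 4 had *MSX2*. That interval holds the shares of all kept cells with *DLX5* (2.01%, 1.98% and 1.45%) and with *MSX2* (1.06%, 1.16% and 1.49%). None of the 265 had *DLX6*, *SP6*, *SP8* or *TP63*. A count of 0 of 265 allows up to 1.38% of cells with a UMI. That is above the share of all cells that had these genes, so a lower share in this class was not detectable. At a finer division into 34 clusters, a neural crest-like cluster of 458 cells, which took in 188 mesenchyme-like cells, had 22 *DLX5* UMIs in 15 cells, or 5.00 CPM (3.14 to 7.58). The same division split 173 cells off the ectoderm class, led by *TAC3*, *SPP1* and *GABRP* and called trophoblast and amnion-like, with 103 of them from E16 HS. There *DLX5* was at 33.2 CPM (25.6 to 42.2), *MSX2* at 16.1 CPM (11 to 22.7), *SP6* at 3.01 CPM (1.11 to 6.56) and *TP63* at 2.01 CPM (0.547 to 5.14), beside 39.2, 5.29, 1.81 and 8.16 CPM in the finer surface ectoderm-like cluster of 1497 cells, of which 1369 were of the class and 128 of a shallow unnamed cluster. The intervals did not overlap for *MSX2*, which was higher in the split-off cells (4.12 to 6.68 CPM in the finer ectoderm cluster), or for *TP63*, which was lower there (6.69 to 9.85 CPM).

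Within mesenchyme, *TFAP2A* and *TFAP2B* were frequent beside *DLX5*, and markers of limb and flank mesoderm beside *MSX2*. Mesenchyme-like *DLX5* cells had *TFAP2A* in 30 of 106 (28.3%, against 2.18% of those without *DLX5*), *TFAP2B* in 26 (24.5% against 2.68%) and *DLX2*, a paralog, in 8 (7.55% against 0.155%). All 3 are genes of cranial neural crest and its arch mesenchyme, yet *SOX10* and *FOXD3*, genes of migrating crest, were in none of the 106. *COL1A1*, in 15.1% against 53.8%, and the somite genes *MEOX1* and *PAX3*, each in 1.89% against 14.1% and 13.4%, were less frequent beside *DLX5*. The *TFAP2A* share was 28.6%, 27.5% and 30.8% by library, the last over 13 cells. The *DLX5* cells were deeper than the rest of the class, with medians of 9769, 8181 and 15521 UMIs against 7328, 6369 and 9083. The shares above were not adjusted for depth.

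Mesenchyme-like *MSX2* cells had *HAND2* in 53 of 134 (39.6% against 20.7% without *MSX2*), *PITX1* in 34 (25.4% against 11.7%), *TBX4* in 17 (12.7% against 4.41%) and *TBX5* in 10 (7.46% against 1.64%). These are genes of limb and flank mesoderm, and their shares here are over the 3 libraries together. Over all classes, *MSX2* cells with 2 markers of that list numbered 13 of 102, 3 of 123 and 20 of 169. The shares were 12.7% (6.96 to 20.8%), 2.44% (0.506 to 6.96%) and 11.8% (7.38 to 17.7%). Cells without *MSX2* had 2.59%, 1.16% and 7.83%, and the intervals of E19 HS and E16 HS hold these. *TBX3*, a limb and flank factor, was in 23.1% against 5.38%, *TFAP2A* in 7.46% against 2.37% and *TFAP2B* in 3.73% against 2.87%. *HAND2* was more frequent beside *MSX2* in each library, with 51.3% against 15.8%, 26.3% against 11.6%, and 40.4% against 32.1%. In the last, E16 HS, the interval (27.6 to 54.2%) holds the share without *MSX2*. Cells with *MSX2* were deeper, with a median of 9150 UMIs against 7332, 6847 against 6380 and 10979 against 9071 by library. These shares were not adjusted for depth.

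**Figure D4:**
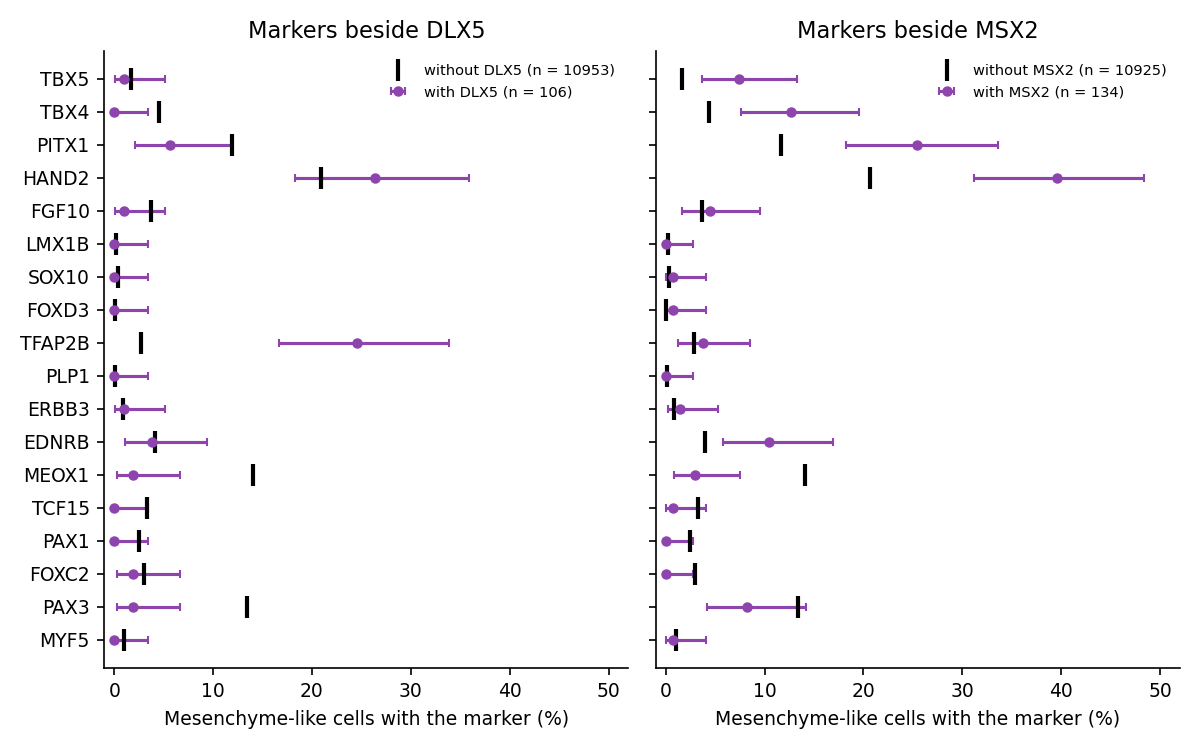
Share (%) of mesenchyme-like cells of the 3 libraries with each marker of limb and flank mesoderm, neural crest and somite, for cells with *DLX5* or *MSX2* (points, with exact binomial intervals) and cells without it (ticks). *TFAP2B* stands out beside *DLX5* at 24.5%, and *HAND2*, *PITX1*, *TBX4* and *TBX5* lie above the ticks beside *MSX2*.

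In neural progenitor-like cells, *MSX2* went with dorsal genes. *PAX3*, a gene of the dorsal neural tube, was in 48 of 93 *MSX2* cells (51.6%, 41.0 to 62.1%) and in 17.2% of the cells without *MSX2*. The library values were 58.1%, 47.1% and 54.5% against 19.8%, 15.7% and 16.7%. *BMP4* was in 24.7% against 4.68%, *WNT3A*, a roof plate signal, in 5.38% against 0.312%, and *PAX6* was less frequent, in 21.5% against 38.8%. The *MSX2* cells were deeper, with medians of 8320, 7076 and 10794 UMIs against 7240.5, 6772 and 7207.5, and the shares were not adjusted for depth. Neural progenitor-like *SP8* cells had *PAX6* in 11 of 18 (61.1%, 35.7 to 82.7%) against 38.4% of the cells without *SP8*, a share that the interval holds, and *PAX3* in 1 of 18 against 17.9%.

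In the ectoderm class, *PAX6* and *SIX6* were more frequent beside *DLX5* in both E19 libraries. *DLX5* cells had *PAX6* in 13.1% against 3.03% of cells without *DLX5*, *SIX6*, a forebrain and eye field gene, in 8.97% against 2.25%, and *BMP2* in 11% against 3.03%. The *DLX5* cells were deeper, with medians of 11344.5, 9878 and 10417 UMIs against 8804.5, 7532 and 8297.5, and the shares were not adjusted for depth. By library *PAX6* was in 14.1%, 21.6% and 2.44% of *DLX5* cells against 1.84%, 5.56% and 1.65%, and *SIX6* in 12, 22 and 1 cells, so E16 HS did not show it beyond its interval (0.506 to 6.96% for *PAX6*). *DLX6* cells had *PAX6* in 8 of 27 (29.6%, 13.8 to 50.2%) against 5.14%. Cells with 2 markers of the forebrain list numbered 7 of 193, 15 of 210 and 1 of 164 for *DLX5* over all classes, and 0 of 25, 1 of 24 and 0 of 7 for *DLX6*. *TP63*, *MSX2* and *SP6* cells had *PAX6* in 3.00%, 3.19% and 0%, and *SIX6* in none. *TFAP2B* was frequent beside all of them: in 44.4% of *DLX5*, 48.1% of *DLX6*, 63.0% of *SP6*, 50% of *TP63* and 53.2% of *MSX2* cells, against 22.8 to 27.9% without the gene. *SOX2* was in 59.3% of *DLX6* cells but in 10.6% of *MSX2* and 3.70% of *SP6* cells, where cells without the gene had it in 35.5%, 37.5% and 36.5%. *EN1*, a factor of ventral limb ectoderm, was in 9 of 94 *MSX2* cells and 4 of 27 *SP6* cells, against 1.45% and 1.71%.

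Most cells with any of the 6 had just 1. Cells with 2 of them numbered 57, 47 and 31, at most 7 in a library had 3, at most 2 had 4, and none had 5 or 6. *DLX5* and *DLX6* were together in 45 cells, so 45 of the 56 *DLX6* cells had *DLX5*, where the product of their shares within 10 strata of depth gives 1.41 cells. Of these, 24 were ectoderm-like and 19 mesenchyme-like. *DLX5* and *MSX2* shared 55 cells, 45 of them ectoderm-like, against 8.12 from the shares, and *DLX5* and *TP63* shared 38 against 2.63. *SP6* and *DLX5* shared 17, all ectoderm-like, against 0.952.

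Within the ectoderm class alone these pairs came closer to the product of their shares. The counts were 24 against 9.31 for *DLX5* and *DLX6*, 45 against 27.7 for *DLX5* and *MSX2*, 36 against 29.8 for *DLX5* and *TP63*, and 17 against 6.30 for *TP63* and *MSX2*. *SP8* shared no cell with *SP6*, *TP63* or *MSX2*, where the shares give 0.0758, 0.174 and 0.633 cells, so fewer shared cells than that were not detectable at this depth.

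*FGF8*, the growth factor of the AER, had 521, 587 and 2257 UMIs, and 2197 of those in E16 HS lay outside the surface ectoderm-like class. In the surface ectoderm-like class it was at 53.7, 39.0 and 9.96 CPM. Class cells with at least 2 *FGF8* UMIs numbered 29, 37 and 14. *DLX5* was in 22 of the 29 (75.9%, 56.5 to 89.7%), in 10 of the 37 (27.0%, 13.8 to 44.1%) and in 3 of the 14 (21.4%, 4.66 to 50.8%). Cells of the class without *FGF8* had *DLX5* in 28.5%, 25.8% and 20.3%.

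In E19 HSTS *DLX5* was more frequent beside *FGF8* than without it, and in the other libraries the shares overlapped. The same cells had *TP63* in 7, 5 and 1, *SP6* in 5, 0 and 0, *MSX2* in 6, 0 and 1, and *DLX6* in 3, 0 and 0. *SP8* was in 0, 1 and 0 of them. In E19 HSTS these were 17.2% for *SP6* (5.85 to 35.8%), 20.7% for *MSX2* (7.99 to 39.7%) and 24.1% for *TP63* (10.3 to 43.5%). Cells of the class without *FGF8* had 1.44%, 5.19% and 9.22% there, below each interval. For *DLX6* the interval (2.19 to 27.4%) holds the share without *FGF8*, 2.31%. In E19 HS *TP63* was in 13.5% (4.54 to 28.8%) against 4.44%. The *FGF8* cells of both E19 libraries had a like depth, with medians of 10376 and 10422 UMIs. With 1 embryo of each breed, a difference between breeds and one between embryos or dissections cannot be told apart.

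**Figure D5:**
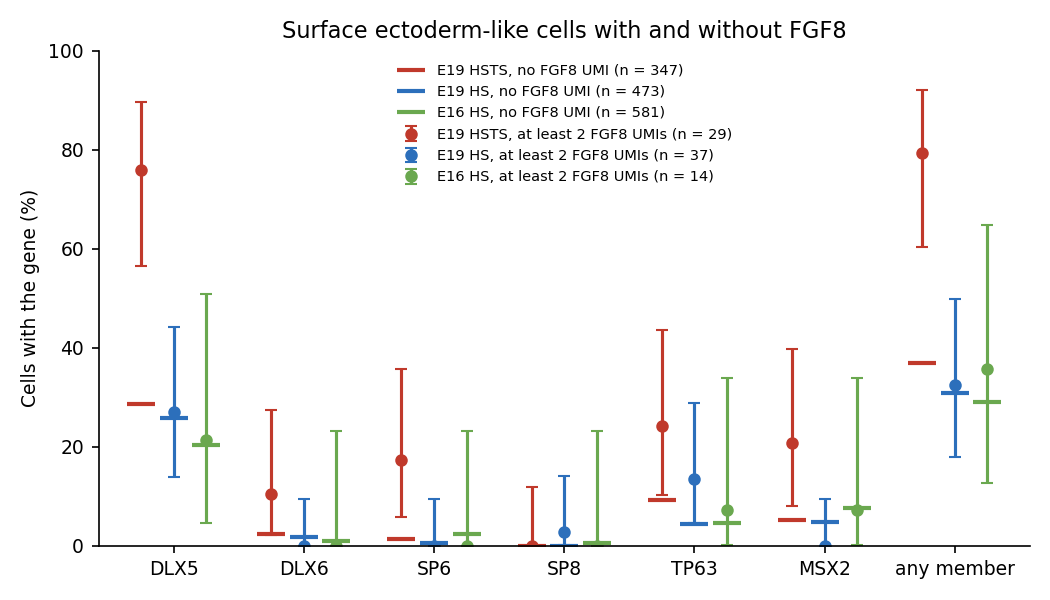
Share (%) of surface ectoderm-like cells with each gene, for cells with at least 2 *FGF8* UMIs (points, with exact binomial intervals) and cells with none (dashes), by library. *DLX5* in E19 HSTS stands at 75.9%, above its dash at 28.5%, while the points of E19 HS and E16 HS for *DLX5* lie near their dashes.

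The signals, receptors and other factors around these genes were given by 4 lists. Of 11 signals of the apical ridge, 10 were tested between the E19 libraries, where 0 were at least 2-fold higher and 1 lower in E19 HSTS. That one was *FGF17*, with 2 UMIs against 38, a ratio of 0.0469 (0.00548 to 0.181). *FGF17* was mainly a tail bud gene here, with 390 UMIs in the tail bud-like class and 3 in the surface ectoderm-like class over all libraries. The tail bud-like class held 33, 113 and 1139 cells. In E19 HS, 28 of the 38 *FGF17* UMIs lay in *EPCAM*-negative cells, which are the more numerous. As a level, *FGF17* in *EPCAM*-positive cells was 1.98-fold that in *EPCAM*-negative cells of E19 HS (0.857 to 4.19). In E16 HS the ratio was 4.96 (4.03 to 6.13). Between E16 HS and E19 HS all 11 were tested, with 5 higher and 1 lower: *FGF17* was 8-fold (5.73 to 11.5), *FGF4* 3.45-fold (1.27 to 11.7), *FGF8* 3.01-fold (2.75 to 3.31), *BMP7* 2.28-fold and *WNT5B* 2.18-fold as high at E16, while *RSPO2* stood at 0.173 of its E19 level (0.129 to 0.227). For *FGF8* the direction turned in the surface ectoderm-like class, where E16 HS stood at 0.256 of E19 HS (0.188 to 0.344), against 4.28-fold as high in other cells (3.85 to 4.77). *FGF8* and *WNT5B* were among the leading genes of the tail bud-like class, and the part of its cell number in these ratios was not tested. The 6 receptors had none past 2-fold in either comparison.

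Of the 7 other ectoderm factors in the files, 6 were tested at E19, with none past 2-fold, and 7 across stages. There 3 were higher at E16, *TFAP2C* at 3.81-fold (2.12 to 7.33), *GRHL2* at 2.29-fold (1.59 to 3.37) and *GRHL3*, with 39 UMIs against 1, at 30.6-fold (5.17 to 1238). *EN1* was lower, at 0.229 (0.154 to 0.335). Of 11 paralogs, 6 were tested, with none past 2-fold at E19 and *SP5* alone higher at E16, at 2.19-fold (1.45 to 3.36). *SP9* stood at 0.739 (0.471 to 1.16) and 0.684 (0.439 to 1.06). Over the 28 and 30 genes tested of all lists, the median log2 ratio was -0.16 between breeds, where all genes had -0.06, and 0.18 between stages, where all genes had 0.21.

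Across 76 groups of finer cluster and library, *TP63* and *SP6* had the most similar pattern of any pair among the 6, with a Pearson correlation of 0.825 on the log2(CPM + 1) scale. *DLX5* correlated at 0.659 with *TP63*, 0.572 with *SP6* and 0.565 with *DLX6*, and the highest value of *SP8* was 0.174, with *MSX2*. The genes outside the 6 closest to *TP63*, among 10915, were *GCNT7* (0.920), *ART3* (0.882) and *STX19* (0.860). *GCNT7*, *GRHL2* and *STX19* were closest to *SP6* (0.797, 0.777 and 0.758), and *TFAP2A*, *TKDP1* and *CXCL14* to *DLX5* (0.715, 0.669 and 0.645). For *DLX6* they were *DLX2* (0.601), *SMPD4* (0.577) and *C1QC* (0.554), for *SP8* *SLC5A5* (0.629), *HES3* (0.606) and *SPOCK2* (0.586), and for *MSX2* *GALNT13* (0.682), *FLRT3* (0.670) and *USP44* (0.649). Groups of a library share its preparation, and *GCNT7*, with 62 UMIs, was found in 12 of the 76 groups. *TKDP1* was found in 7 groups and *C1QC* in 6. Among the 6, *SP6* had 17, 3 and 28 UMIs by library, *SP8* had 13, 14 and 19, and *DLX6* had 26, 26 and 7. Correlations of these sparse genes, that of *TP63* with *SP6* included, rest on few UMIs.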

How the data were processed

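Whole sheep embryos were dissociated and profiled with 10x Genomics 3′ chemistry. The authors ran Cell Ranger 6.1.2 for alignment and UMI counting on a genome the files call Ovis_aries_genome_v1.0, and the deposited values are raw UMI counts of called cells, which were used unchanged. The submitters' processing notes also name Seurat 4.1.1 in R 4.1.2. The 6 genes and all lists were chosen with earlier results of these data known. Cells were kept by the limits given above, and none was removed as a doublet. Scrublet in scanpy 1.11.5 scored doublets and marked 193, 0 and 198 cells by library, so it did not work for E19 HS.

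Cells were clustered in Seurat 5.3.0 under R 4.3.3 on counts scaled to 10000 per cell, with 2000 variable genes less the 6, the mitochondrial share regressed out, 25 components and resolution 0.25, giving 19 clusters. A cluster took the name of the list, of 17, with the most markers among its 10 leading genes (ties by mean marker level), if at least 3 of the list were detected in 10% of its cells and its cells were not far shallower than their library. Such names mean likeness, and may differ from the authors' annotation, which was not used here. The clustering used no batch integration, so a cluster of mostly 1 library may be that library. Groups came from the sample titles. CPM is UMIs per 1000000 UMIs of the cells summed. A gene was called past 2-fold among named genes with 20 or more UMIs. Intervals were exact (Poisson, Clopper-Pearson and conditional binomial), made with scipy 1.17.1, pandas 2.3.3 and numpy 2.4.6 in Python 3.11.15. Intervals, thinning and the expected counts of shared cells were tested on simulated data. The genes named are the 6, *EPCAM*, *FGF8*, the fixed lists and, for each of the 6, the 3 genes closest in pattern with at least 50 UMIs over groups of at least 50 cells. Markers singled out within a class, and leading genes of clusters, were chosen after their values were seen. The alternatives were TMM scaling in edgeR 4.0.16, other cell filters, blood progenitor-like cells left out, thinning, removal of the 8% of cells scored highest as doublets, 2 UMIs for detection, *CDH1* for *EPCAM*, resolution 1.0 and other minimum counts. The E16 HSTS cells were not analysed here.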

Additional observations from a re-analysis of the deposited data

How the results depend on the processing

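No paired analysis was possible because each condition has 1 library. Of the alternative values computed, 237 stayed within the counting interval or within 1.5 times the main count and 106 moved, and none reversed a called value. With at least 100 UMIs per gene, 2 of the 6 could be tested in each comparison and 0 were past 2-fold in either direction, since *SP6* and *DLX6* fall below that count. With TMM scaling 2 were lower at E16 in place of 1. Leaving out blood progenitor-like cells moved the *DLX5* ratio of E19 HSTS to E19 HS to 1.18. After thinning to 3000 UMIs, 1.54%, 1.51% and 1.36% of cells had any of the 6, and with at least 2 UMIs of a gene 0.936%, 0.847% and 0.344%. The share of these cells with *EPCAM* was 36.6%, 30.0% and 42.6% after thinning, 40.1%, 34.8% and 48.9% with at least 2 *EPCAM* UMIs, and 7.84%, 8.26% and 7.75% with *CDH1*, itself sparse, in place of *EPCAM*. Their surface ectoderm-like share, 50.2%, 47.6% and 47.3%, became 44.5% in E19 HSTS and 35.8% in E16 HS at resolution 1.0, where the trophoblast and amnion-like cells are split off, and 56.5% in E19 HSTS after thinning. Of the 15 pairs, 12 had more shared cells than the product of their shares, and 7 after thinning, with any excess counted. The interval of the count holds the product for *DLX5* with *SP8* (2 cells against 0.932). It also does for *DLX6* with *SP8* (1 against 0.0812), *TP63* (2 against 0.256) and *MSX2* (3 against 0.752). After thinning it does for *TP63* with *MSX2* (1 against 0.189).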

Other observations

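Cells with the 6 genes but without *EPCAM* were also placed by class. Of 180 *DLX5* cells without it, 102 were mesenchyme-like (56.7%) and 41 surface ectoderm-like (22.8%), and of 29 *DLX6* cells 21 were mesenchyme-like. Of 16 *TP63* cells 14 were surface ectoderm-like. Of 256 *MSX2* cells, 128 were mesenchyme-like (50%), 80 neural progenitor-like and 8 surface ectoderm-like, and of 29 *SP8* cells 15 were neural progenitor-like. For *SP6*, 3 of 8 were tail bud-like.

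*NEFL*, a neurofilament gene, was found beside 3 of the genes in ectoderm. *NEFL* was in 15 of 27 surface ectoderm-like *SP6* cells (55.6%, 35.3 to 74.5%), in 27.0% of *TP63* and in 31.9% of *MSX2* cells of the class, against 13.3 to 13.7% of the cells without each gene. These shares are over the 3 libraries together and were not adjusted for depth. The *SP6* cells had medians of 12970, 6566 and 11318 UMIs against 9341.5, 8178.5 and 8587. Over all classes, cells with 2 early neuron markers numbered 6 of 15, 0 of 3 and 1 of 27 for *SP6*. For *TP63* they numbered 11 of 44, 2 of 31 and 7 of 36, and for *MSX2* 8 of 102, 6 of 123 and 14 of 169. The class as a whole had *NEFL* at 22.5 CPM and *ELAVL3*, a neuronal gene, at 1 UMI.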
